A study of Mus musculus with 6 samples.

Results

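The 32 genes described here encode the enzymes that make cholesterol, the proteins that sense it, and the proteins that take it up, move it inside the cell or export it. They were chosen by gene symbol, and all 32 were found among the 17419 genes of the deposited table. All 32 also passed the filter on low counts, which left 13264 genes in all. Of the 32, 18 are synthesis enzymes, 5 are sterol sensing proteins, 5 act in uptake and handling, and 4 in efflux.

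RNA had been sequenced from fibroblasts of the tendon enthesis, the attachment of tendon to bone, of SKG mice, a strain with a Zap70 mutation that is prone to autoimmune arthritis. There were 3 samples labelled diseased, with NTS in their titles, and 3 labelled un-diseased, with UN in theirs. Every sample of both groups came from SKG mice. The labels give neither the ages of the mice nor how disease arose, and leave unsaid whether the 3 samples of a group are separate animals. P-values therefore measure spread among these 6 samples alone, which may be technical.

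Cholesterol is built from acetyl-CoA through mevalonate, farnesyl diphosphate, squalene and lanosterol. When sterols in the endoplasmic reticulum are low, SCAP escorts the SREBP transcription factors to the Golgi, where they are cut and released to raise synthesis and uptake genes; when sterols are high, the INSIG proteins hold SCAP back. Oxysterols bind the LXR receptors, which raise the exporters Abca1 and Abcg1 and also Mylip, whose product marks lipoprotein receptors for breakdown.

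Total counts lay between 16720605 and 18290870 per sample. All 8 fibroblast markers were detected in every sample, with summed levels of 81468 to 115087 CPM (counts scaled to library size with TMM factors) in diseased and 60585 to 87004 CPM in un-diseased samples. The collagen genes Col1a1, Col1a2 and Col3a1 made up most of these sums. Of the 8 markers 5 had a positive fold change (diseased over un-diseased) and 3 a negative one, Pdgfra, Dcn and Pdpn. The 20 macrophage markers summed to 227 to 602 CPM in diseased and 50.01 to 299 CPM in un-diseased samples. A positive fold change was seen for 19 of 20, against 51.8% of all tested genes. By edgeR 0 passed an adjusted p under 0.05. At an unadjusted p under 0.05, 8 were higher in diseased samples, against 13.4% of all tested genes. With the replicate number as a block 19 rose, against 10.5% of all tested genes. Among the macrophage markers, Fcgr1 had a count of 0 in at least 1 un-diseased sample and none was at 0 in a diseased one. The 10 adipocyte markers summed to 122 to 233 CPM in diseased and 295 to 355 CPM in un-diseased samples. Lpl made up most of each sum, at 94.5 to 210 CPM in diseased and 238 to 313 CPM in un-diseased samples. Of the 6 tested 2 fell, Plin4 and Pnpla2, against 2.13% of all tested genes. With the block 5 fell, against 13.3% of all tested genes. Lep had a count of 0 in samples of both groups, Plin1 and Cidec in diseased ones. In bulk RNA, fewer cells of a type and less RNA per cell cannot be told apart. The part of macrophage or adipocyte RNA in the results was not tested.

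None of the 32 cholesterol genes passed the test between diseased and un-diseased samples. With edgeR's quasi-likelihood test, 0 of 32 reached an adjusted p under 0.05, while 3.73% of all tested genes did (1.61% higher and 2.13% lower in diseased samples). An unadjusted p under 0.05 was reached by 5 members, Sc5d, Dhcr7 and Stard4 with higher and Acat2 and Mylip with lower values in diseased samples; over all tested genes that share was 27.8%. The median log2 fold change (diseased minus un-diseased) of the members was 0.07, and 0.02 over all tested genes. It was positive for 19 of 32 members and for 51.8% of all tested genes. All 3 same-numbered pairs of samples pointed up for 6 members and down for 6, while of all tested genes 60.7% kept 1 direction (30.7% up and 30.1% down). For 24 members the 95% interval of the fold change lay within 2-fold in both directions. Over all genes edgeR called 213 higher and 282 lower with TMM scaling, and 417 higher and 288 lower with upper-quartile scaling.

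Samples with the same number deviated together from their group means, so the comparison was also made within numbers. The labels do not say whether same-numbered samples belong together. With the replicate number as a block, 2 members passed, Hsd17b7 and Mylip, both lower in diseased samples. That is 2 of 32, against 23.9% of all tested genes, so the members' share lay below that of all tested genes. DESeq2 without the block called Mylip alone among the 32, with 11.4% of all tested genes called. In the authors' deposited table, Mylip is likewise the member with a q-value below 0.05 (0.0341; its log2 ratio there, 0.61, is un-diseased over diseased); 7.81% of the genes in that table have one.

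**Figure D1:**
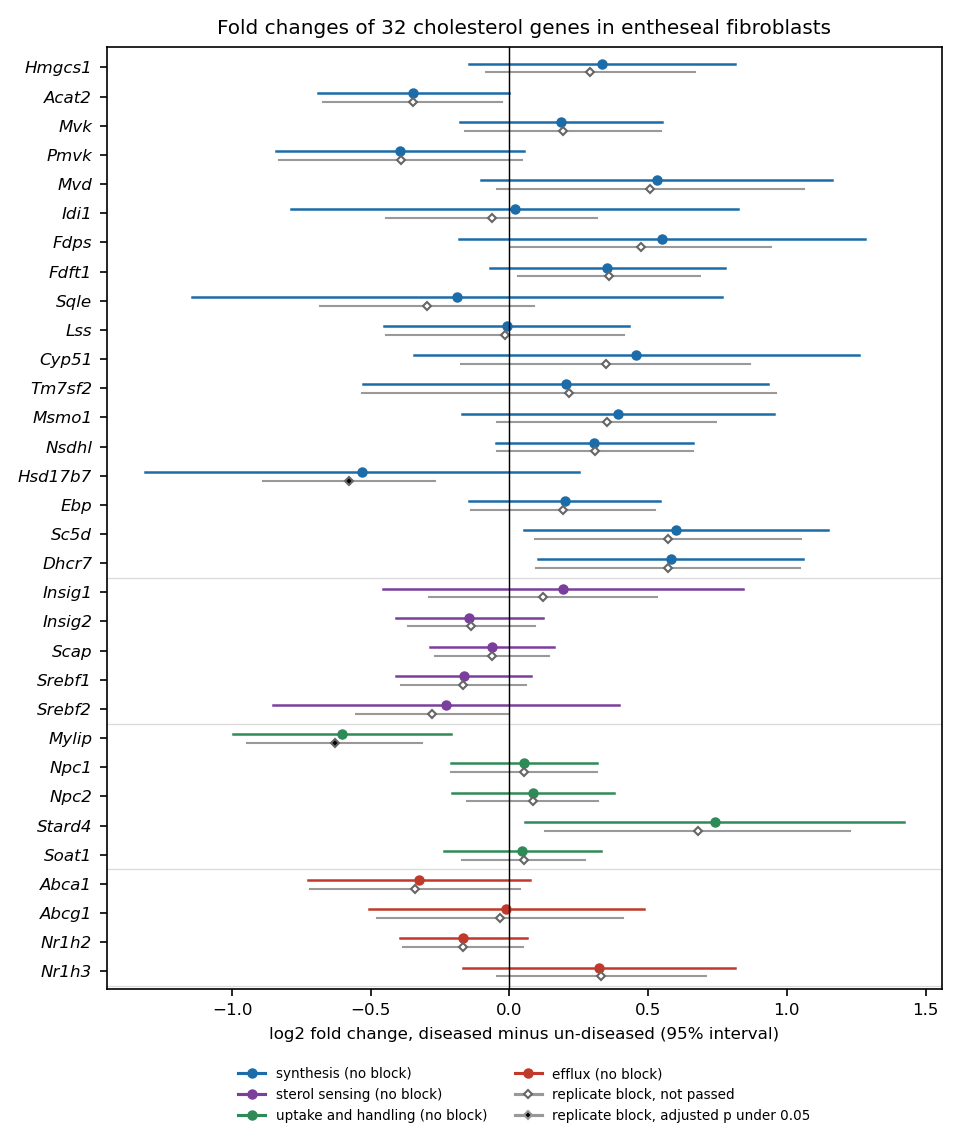
Log2 fold changes of the 32 genes, diseased minus un-diseased, with 95% intervals: coloured circles from edgeR without the block, grey diamonds with the replicate block. Filled black diamonds mark Hsd17b7 and Mylip, the members that passed with the block; the circles lie between -0.60 and 0.74, and their intervals include 0 except those of Acat2, Sc5d, Dhcr7, Mylip and Stard4.

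Most synthesis enzymes shared their highest and lowest sample within the diseased group. There, replicate 2 had the highest level of all 18 enzymes, and replicate 1 the lowest level of 14. Over all tested genes, replicate 2 was the highest diseased sample for 41.2% and replicate 1 the lowest for 38.1%. The median ratio of the highest to the lowest diseased sample was 1.55 for the 18 enzymes and 1.28 over all tested genes. In the un-diseased group the same ratio was 1.33 for the enzymes and 1.297 over all tested genes. As a median over the 18 enzymes, log2 CPM stood at -0.19, 0.43 and 0.04 relative to each gene's mean in diseased replicates 1, 2 and 3, and at -0.05, -0.04 and -0.19 in un-diseased replicates 1, 2 and 3. Diseased replicate 2 thus stood above the other 5 samples. That replicate had the highest sum of fibroblast markers, which is mostly collagen genes. It also had the highest sum of macrophage markers (602 CPM, against 408 and 227 CPM in diseased replicates 1 and 3). The part of either in its level was not tested.

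**Figure D2:**
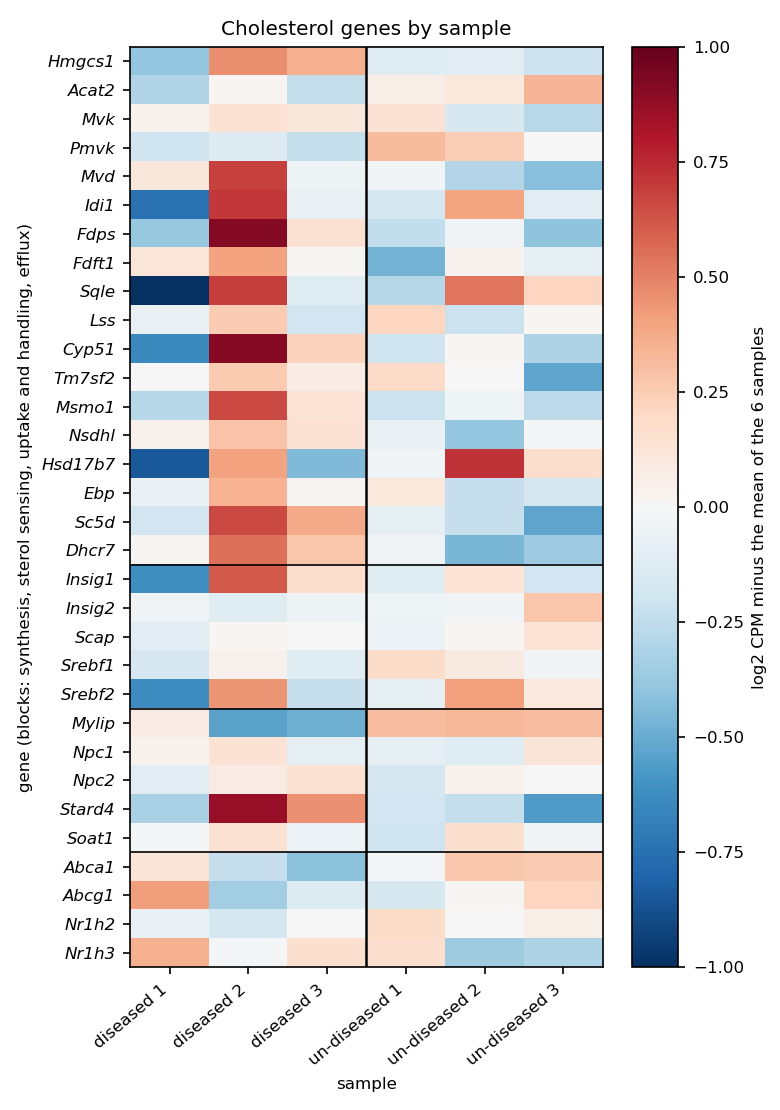
Log2 CPM of each gene in each sample minus that gene's mean over the 6 samples, in blocks of synthesis, sterol sensing, uptake and handling, and efflux genes. In the top block the diseased 2 column is the reddest of the diseased columns in all 18 rows, while Abca1, Abcg1 and Nr1h3 at the bottom are highest in diseased 1 within that group.

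Sqle, squalene epoxidase, which adds oxygen to squalene and is a rate-limiting step, varied most. It had 9.44, 31.8 and 18.02 CPM in diseased replicates 1, 2 and 3, against 16.1, 28.5 and 22.8 CPM in un-diseased replicates 1, 2 and 3. Both groups were highest in replicate 2 and lowest in replicate 1. Diseased replicate 1 lay below and diseased replicate 2 above every un-diseased sample, with diseased replicate 3 between them. The log2 fold change was -0.19 (SE 0.41, adjusted p = 0.785 by edgeR), with a 95% interval from -1.14 to 0.76, and ran from -0.71 to 0.15 over the alternatives tried, with the same sign in 18 of 20 settings. Idi1, which isomerizes isopentenyl diphosphate, showed the same order of samples, with 12.4, 34.0 and 19.8 CPM in diseased and 18.45, 27.4 and 19.3 CPM in un-diseased replicates 1, 2 and 3. Cyp51, lanosterol demethylase, had 13.9, 41.3 and 25.7 CPM in diseased replicates, while the un-diseased ones stayed between 17.7 and 22.0 CPM. Diseased replicate 1 of Cyp51 lay below all un-diseased samples and diseased replicates 2 and 3 lay above them.

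Hmgcs1, the HMG-CoA synthase of the mevalonate pathway, had the highest CPM of the synthesis genes, at 57.5, 103 and 95.9 CPM in diseased replicates 1, 2 and 3 and 69.1, 69.5 and 65.1 CPM in un-diseased ones. It averaged 85.6 ± 24.6 CPM in diseased and 67.9 ± 2.44 CPM in un-diseased samples (n = 3 each, ± SD), a log2 fold change of 0.33 (SE 0.21, adjusted p = 0.316 by edgeR). Diseased replicate 1 again lay below all 3 un-diseased samples. Fdps, farnesyl diphosphate synthase, had 7.83, 19.4 and 11.4 CPM in diseased and 8.60, 9.96 and 7.68 CPM in un-diseased replicates. Mvd, the decarboxylase that makes isopentenyl diphosphate, averaged 3.70 ± 1.07 CPM in diseased and 2.55 ± 0.38 CPM in un-diseased samples (n = 3 each, ± SD), and Mvk, mevalonate kinase, 9.15 ± 0.36 and 8.02 ± 1.26 CPM. None of these passed the test between the groups.

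The other early enzymes pointed both ways. Acat2, the cytosolic thiolase that makes acetoacetyl-CoA, had 9.29, 11.6 and 9.71 CPM in diseased replicates, below the 12.0, 12.3 and 14.6 CPM of the un-diseased ones. Pmvk, phosphomevalonate kinase, had 3.33, 3.49 and 3.24 CPM in diseased and 4.79, 4.57 and 3.84 CPM in un-diseased replicates. The groups did not overlap for either gene, and neither passed (log2 fold change -0.35, SE 0.15, adjusted p = 0.178 for Acat2 and -0.40, SE 0.19, adjusted p = 0.222 for Pmvk, by edgeR). Fdft1, squalene synthase, had 11.2, 13.6 and 10.4 CPM in diseased and 7.35, 10.5 and 9.60 CPM in un-diseased replicates, with slight overlap. Over the 18 enzymes the groups did not overlap for 4 genes, Acat2, Pmvk, Nsdhl and Dhcr7, and over all tested genes for 31.9%.

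Of the late enzymes, which turn lanosterol into cholesterol, Dhcr7 and Sc5d had the most positive fold changes. Dhcr7, the reductase of the last step of this branch, had 6.26, 9.09 and 7.50 CPM in diseased and 5.99, 4.45 and 4.77 CPM in un-diseased replicates. Every diseased value of Dhcr7 was above every un-diseased one, by a small margin in replicate 1 (log2 fold change 0.58, SE 0.21, adjusted p = 0.131 by edgeR). Sc5d, the lathosterol desaturase, had 8.71, 15.8 and 12.9 CPM in diseased and 9.28, 8.45 and 6.88 CPM in un-diseased replicates (0.60, SE 0.24, adjusted p = 0.153 by edgeR). Here diseased replicate 1 lay inside the un-diseased range. Nsdhl, a sterol dehydrogenase, did not overlap between the groups, at 10.4, 12.3 and 11.2 CPM in diseased and 9.64, 7.70 and 10.0 CPM in un-diseased replicates. Msmo1, the methylsterol oxidase, had 7.53, 14.6 and 10.1 CPM in diseased and 7.92, 8.95 and 7.68 CPM in un-diseased replicates. Small differences between diseased and un-diseased samples (n = 3 each, ± SD) were seen for Tm7sf2, Ebp and Lss. Tm7sf2, a sterol reductase, averaged 1.23 ± 0.13 and 1.06 ± 0.29 CPM, in that order of groups. Ebp, a sterol isomerase, averaged 32.4 ± 5.10 and 28.2 ± 3.67 CPM. Lss, lanosterol synthase, which acts before these late enzymes, averaged 7.27 ± 1.23 and 7.30 ± 1.10 CPM.

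Hsd17b7, which reduces the 3-keto group left by demethylation, was 1 of 5 synthesis enzymes with a negative fold change; the other 13 had a positive one. It had 7.87, 18.7 and 10.4 CPM in diseased replicates 1, 2 and 3, against 13.9, 23.5 and 15.99 CPM in un-diseased replicates 1, 2 and 3. The groups overlapped, but each diseased sample lay below the un-diseased sample of its number, by 0.81, 0.32 and 0.61 on the log2 scale in pairs 1, 2 and 3. Without the block the log2 fold change was -0.53 (SE 0.34, adjusted p = 0.325 by edgeR). With the replicate block it was -0.58 (SE 0.13, adjusted p = 0.0195 by edgeR), a fall. Leaving out pair 1 or pair 3 of the blocked comparison took the adjusted p to 0.0587 and 0.107, and leaving out pair 2 to 0.0169.

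The promoters of these genes are shown because the 18 enzymes shared a highest diseased sample and Hsd17b7, the fall with the block, had a sign opposite to most of them. RefSeq windows of GRCm38.p6, from 250 bases before to 50 bases after the start, were matched for 26 of the 32 genes, 15 of them synthesis enzymes; Fdps, Fdft1, Sqle, Npc1, Stard4 and Abcg1 were not matched. The NF-Y box (CCAAT, searched on both strands) was found in 14 of 15 synthesis genes, 4 of 5 sensing genes, 3 of 3 uptake genes and 0 of 3 efflux genes, and in 41.1% of all genes with a window. A sterol response element, searched as TCACNCCAC on both strands, was found in Hmgcs1 alone and in 1.44% of all genes. The GC box (GGGCGG, both strands) was found in 14 of 15 synthesis genes, 5 of 5 sensing genes, 3 of 3 uptake genes and 1 of 3 efflux genes, and in 38.2% of all genes. These shares of all genes are over 27025 genes with a window, whether or not they were tested here. None of these motifs overlaps another in the following 3 windows. Capitals mark the sterol response element and the NF-Y boxes, which read ATTGG where they lie on the opposite strand.
Hmgcs1 (chr13:119690101-119690400, + strand): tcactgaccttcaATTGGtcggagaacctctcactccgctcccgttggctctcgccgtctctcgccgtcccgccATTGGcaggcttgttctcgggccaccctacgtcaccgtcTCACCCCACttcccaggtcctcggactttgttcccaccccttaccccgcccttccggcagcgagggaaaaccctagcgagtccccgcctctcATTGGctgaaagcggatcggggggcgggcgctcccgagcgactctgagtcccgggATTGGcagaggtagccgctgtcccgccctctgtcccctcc
Idi1 (chr13:8885356-8885655, + strand): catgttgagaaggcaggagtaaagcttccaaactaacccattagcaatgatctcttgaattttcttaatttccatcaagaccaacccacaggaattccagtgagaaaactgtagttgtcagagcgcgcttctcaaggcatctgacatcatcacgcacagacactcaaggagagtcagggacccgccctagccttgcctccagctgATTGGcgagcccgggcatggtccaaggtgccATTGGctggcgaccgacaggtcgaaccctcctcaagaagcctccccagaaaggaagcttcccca
Hsd17b7 (chr1:169969156-169969455, - strand): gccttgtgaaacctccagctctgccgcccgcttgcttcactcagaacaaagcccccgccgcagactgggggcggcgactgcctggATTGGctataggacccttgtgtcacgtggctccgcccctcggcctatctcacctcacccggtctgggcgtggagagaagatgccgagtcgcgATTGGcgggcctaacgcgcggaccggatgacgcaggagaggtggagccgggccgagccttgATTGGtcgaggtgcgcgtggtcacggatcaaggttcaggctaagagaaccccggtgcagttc
In Hmgcs1 the sterol response element begins at position -137 from the start and NF-Y boxes at -237, -176, -45 and 11. Idi1 has NF-Y boxes at -45 and -14, and Hsd17b7 at -165, -73 and -12. Positions are counted from the RefSeq start. The longest coding transcript in GENCODE M21 starts earlier, at base 146 of the Idi1 window and base 215 of the Hsd17b7 window. Both Idi1 boxes and the Hsd17b7 box at -12 lie after those starts. In the Hmgcs1 window the first bases of that transcript were not found. A match describes these letters and is no evidence of binding. A missing match to an exact string is no evidence that a site is absent.

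Among the 5 sterol sensing genes 0 passed, without or with the block, and the median log2 fold change was -0.14 (-0.02 when diseased replicate 1 was left out, -0.03 when un-diseased replicate 3 was). Srebf2, which encodes the SREBP that drives cholesterol synthesis genes, had the highest CPM of the 5, a scale not corrected for length. It had 59.2, 124 and 78.0 CPM in diseased and 85.9, 122 and 98.3 CPM in un-diseased replicates 1, 2 and 3, the sample order seen for Sqle (log2 fold change -0.23, SE 0.27, adjusted p = 0.591 by edgeR). Insig1, the INSIG whose own gene is an SREBP target, had 33.8, 79.6 and 58.7 CPM in diseased and 47.8, 56.98 and 45.5 CPM in un-diseased replicates. It too was lowest in diseased replicate 1 and highest in diseased replicate 2. Insig2, the less sterol-dependent INSIG, had 71.7, 67.7 and 70.8 CPM in diseased and 71.3, 72.0 and 89.2 CPM in un-diseased replicates, so that its diseased samples lay within 1.06-fold of each other. Scap averaged 60.8 ± 3.02 and 63.6 ± 4.44 CPM, and Srebf1, whose SREBP acts mainly on fatty acid genes, 70.9 ± 5.64 and 79.5 ± 5.92 CPM, in diseased and un-diseased samples (n = 3 each, ± SD). For all 5 genes the 95% interval lay within 2-fold in both directions, the widest being that of Insig1, from -0.46 to 0.84 on the log2 scale.

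**Figure D3:**
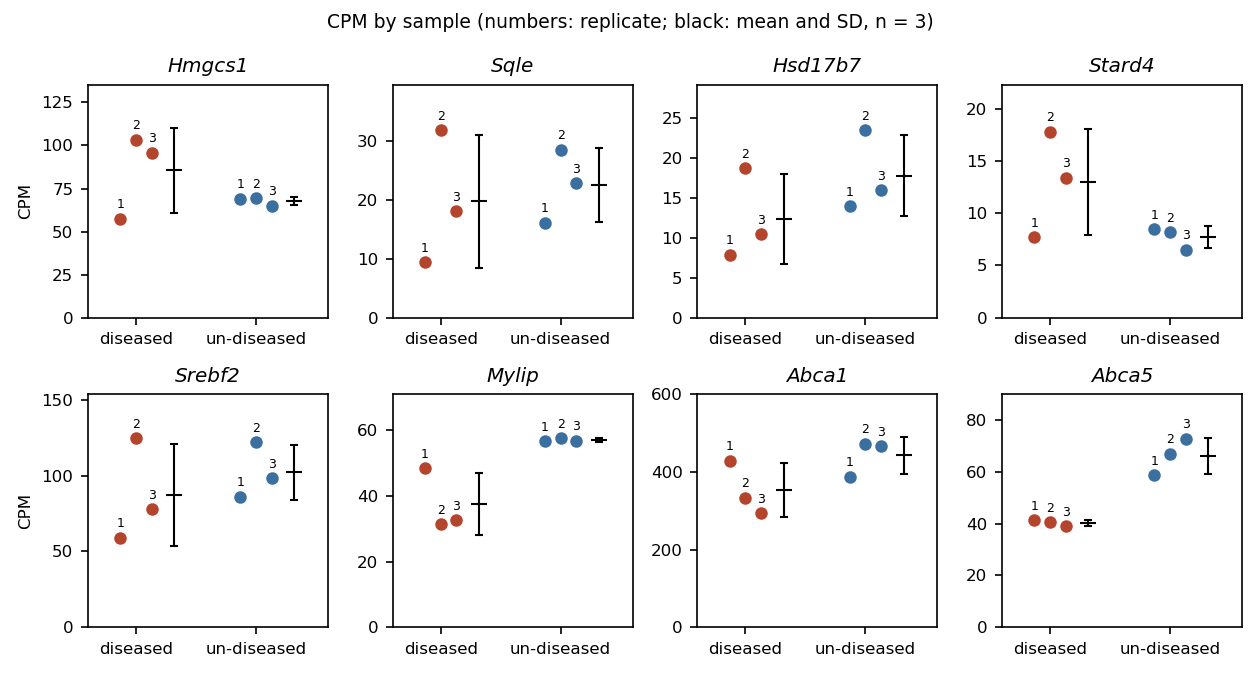
CPM of 8 genes in each sample, diseased left of un-diseased, with replicate numbers above the points and the mean and SD (n = 3) in black. Diseased replicate 1 is the lowest of its group for Hmgcs1, Sqle, Hsd17b7, Stard4 and Srebf2 and the highest for Mylip and Abca1; the groups do not overlap for Mylip and Abca5.

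Mylip was the member with the clearest difference in uptake and handling. Its product, also called IDOL, is a ubiquitin ligase that sends lipoprotein receptors to the lysosome. It had 48.5, 31.5 and 32.6 CPM in diseased replicates 1, 2 and 3, against 56.7, 57.7 and 56.9 CPM in un-diseased replicates 1, 2 and 3. The groups did not overlap, and the un-diseased samples lay within 1.02-fold of each other. Means were 37.5 ± 9.50 CPM in diseased and 57.1 ± 0.51 CPM in un-diseased samples (n = 3 each, ± SD), with a log2 fold change of -0.60 (SE 0.17, adjusted p = 0.0867 by edgeR), which did not pass. With the replicate block it fell by 0.63 (SE 0.14, adjusted p = 0.0154 by edgeR), with differences of -0.23, -0.87 and -0.80 in pairs 1, 2 and 3. Without the block it also passed when diseased replicate 1 was left out (adjusted p = 0.0364), and with the block it did not pass when pair 3 was left out (adjusted p = 0.117).

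The promoter of Mylip is shown with capitals for its NF-Y boxes, as the member lower in diseased samples by both DESeq2 and the blocked comparison.
Mylip (chr13:45389492-45389791, + strand): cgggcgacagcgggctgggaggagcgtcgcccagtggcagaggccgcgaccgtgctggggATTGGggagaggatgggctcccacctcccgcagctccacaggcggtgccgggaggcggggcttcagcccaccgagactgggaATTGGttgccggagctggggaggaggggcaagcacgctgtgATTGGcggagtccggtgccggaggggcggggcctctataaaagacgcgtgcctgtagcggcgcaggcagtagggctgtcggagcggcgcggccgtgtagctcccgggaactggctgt
Its NF-Y boxes begin at -190, -108 and -67 from the start, and the window holds no match to the sterol response element or to the LXR repeat searched. The LXR repeat was found in 0 of the 26 matched members and in 0.0148% of all genes with a window. With so rare a string, a missing match does not show that a site is absent.

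Stard4, a carrier that moves cholesterol between membranes, had the largest positive fold change of the 32. It had 7.73, 17.8 and 13.4 CPM in diseased and 8.50, 8.20 and 6.51 CPM in un-diseased replicates 1, 2 and 3. Diseased replicates 2 and 3 lay above all un-diseased samples and diseased replicate 1 within them (log2 fold change 0.74, SE 0.29, adjusted p = 0.156 by edgeR). The genes of lysosomal cholesterol export and of storage had the smallest fold changes of the 5. Npc2, the soluble lysosomal sterol carrier, had 257, 293 and 308 CPM in diseased and 246, 285 and 278 CPM in un-diseased replicates (0.08, SE 0.12, 95% interval -0.21 to 0.38, adjusted p = 0.677 by edgeR). Npc1, the membrane protein that receives sterol from Npc2, averaged 62.8 ± 5.38 and 60.6 ± 5.97 CPM, and Soat1, which esterifies cholesterol for storage, 39.9 ± 3.21 and 38.7 ± 4.77 CPM, in diseased and un-diseased samples (n = 3 each, ± SD).

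The 4 efflux genes had a median log2 fold change of -0.09, which was 0.01 without diseased replicate 2, -0.22 without diseased replicate 1 and -0.25 without pair 1 with the block; 0 passed in the comparison without or with the block. Abca1, which loads cholesterol onto apolipoprotein A-I, had 429, 334 and 295 CPM in diseased and 388, 473 and 466 CPM in un-diseased replicates 1, 2 and 3. Diseased replicates 2 and 3 lay below all un-diseased samples and diseased replicate 1 between them (log2 fold change -0.33, SE 0.17, adjusted p = 0.252 by edgeR). Abcg1, which exports cholesterol to high-density lipoprotein, had 20.9, 12.3 and 14.2 CPM in diseased and 14.0, 15.8 and 18.1 CPM in un-diseased replicates. Within the diseased group, the LXR targets Mylip, Abca1 and Abcg1 were highest in replicate 1, as were 33.0% of all tested genes. Other known LXR targets were mixed. Srebf1, Arl4c and Lpcat3 were lowest in that replicate, Pltp was highest in replicate 2, and Smpdl3a was highest in replicate 1. Of the 12 other efflux, LXR target and oxysterol genes, 5 were highest in diseased replicate 1. Nr1h3, LXR alpha, had 7.14, 5.48 and 6.21 CPM in diseased and 6.25, 4.32 and 4.46 CPM in un-diseased replicates, and Nr1h2, LXR beta, 42.9, 39.8 and 45.2 CPM in diseased and 51.3, 45.3 and 47.0 CPM in un-diseased replicates. Nr1h2 did not overlap between the groups, with a log2 fold change of -0.17 (SE 0.10, adjusted p = 0.294 by edgeR). Macrophages also express Nr1h3, Abca1 and Abcg1. Macrophage markers summed to 227 to 602 CPM in diseased and 50.01 to 299 CPM in un-diseased samples, as given above. Their part in the levels of these genes was not tested.

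Differences within same-numbered samples showed where the synthesis genes parted. In pair 1, 4 of the 18 synthesis genes were higher in the diseased sample, with a median difference of -0.19 on the log2 scale. In pair 2, 15 of 18 were higher (median 0.52), and in pair 3, 13 of 18 (median 0.28). Over all tested genes 49.5%, 51.3% and 51.4% were higher in the diseased sample of pairs 1, 2 and 3. Pair 1 had the lowest difference of the 3 pairs for 16 of 18 synthesis genes and for 37.1% of all tested genes. The efflux genes had medians of 0.17, -0.27 and -0.20, and the sensing genes of -0.35, 0.00 and -0.14, in pairs 1, 2 and 3.

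The calls depended on which pair entered. In the blocked comparison 9 members passed without pair 1, 3 without pair 2 and 0 without pair 3, against 2 with all 3 pairs. The share of all tested genes that passed was 19.3%, 15.6% and 7.53% without pairs 1, 2 and 3, and 23.9% with all 3 pairs. Only without pair 1 did the members' share, 28.1%, lie above that of all tested genes. Without pair 1 the 4 remaining samples gave 7 rises, Hmgcs1, Fdps, Cyp51, Sc5d, Dhcr7, Insig1 and Stard4, and 2 falls, Mylip and Abca1, by edgeR. Of all tested genes 7.62% rose and 11.7% fell in that comparison, and of the members 21.9% and 6.25%. The fold changes there ran from 0.41 for Insig1 to 1.06 for Stard4 among the rises, with -0.60 for Abca1 and -0.85 for Mylip. Without pair 2 the calls were falls of Hsd17b7, Srebf2 and Mylip. Each of these comparisons rests on 2 pairs, and nothing in the labels sets pair 1 apart.

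**Figure D4:**
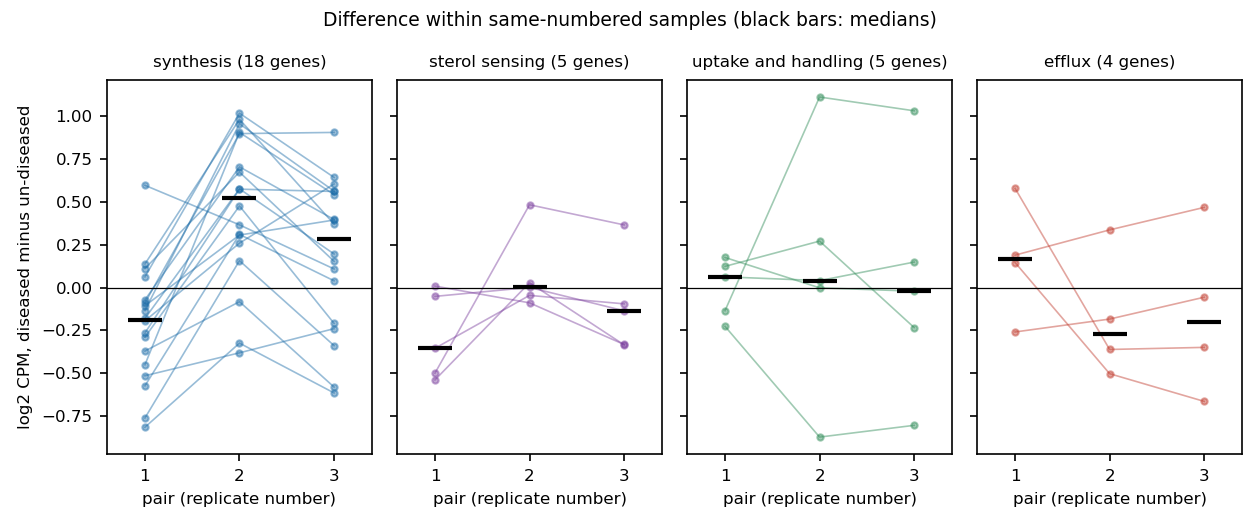
Log2 CPM of the diseased minus the un-diseased sample of each pair, for the genes of each group; every line joins the values of 1 gene, and black bars are medians. Synthesis genes lie mostly below 0 in pair 1 (median -0.19) and above it in pairs 2 and 3 (medians 0.52 and 0.28), while Abca1 and Abcg1 in the efflux panel run the other way.

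Per length, as CPM per kilobase of exon, the order of levels between genes could be compared. On that scale Npc2 had the highest level of the 32 genes, 86.8 ± 7.96 in diseased and 81.8 ± 6.29 in un-diseased samples (n = 3 each, ± SD). Abca1 followed with 34.4 ± 6.74 and 43.1 ± 4.60. Hmgcs1, at 24.6 ± 7.07 and 19.5 ± 0.70, and Ebp, at 18.6 ± 2.93 and 16.2 ± 2.10, led the synthesis enzymes, which reached down to Tm7sf2 at 0.72 ± 0.08 and 0.62 ± 0.17. Among the 5 sensing genes, whose group means lay between 14.4 and 26.2, Insig2 had 23.7 ± 0.72 and 26.2 ± 3.43, above Srebf2 with 17.2 ± 6.61 and 20.1 ± 3.61.

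The counts of some members carry reads that other genes may share, and the sources used here do not give the strand setting of the counting. In GENCODE M21, Fdft1 shares 774 exon bases, 20.9% of its exons, with the cathepsin gene Ctsb on the opposite strand. Hmgcs1 shares 557 bases with an antisense transcript, Scap 785 with an opposite-strand one, and Fdps 77.4% of its exons with a same-strand gene, Gm43738. Acat2 matches Acat3 at 97.7% over 1477 bases, Fdps has 4 processed pseudogenes of at least 95% identity, and Idi1 has 2, of which 1 is identical over 684 bases; Fdft1 also has 1, at 97.4% over 1249 bases. Values of these 6 genes are uncertain to that extent. Smaller overlaps or shorter near copies touch Cyp51, Insig1, Lss, Npc1, Srebf1 and Tm7sf2, while Hsd17b7 and Mylip had neither an exon overlap nor a near copy by the same criteria.

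Abca5 was the one gene of the wider pathway lists that passed by edgeR with TMM scaling and without the block. Its product is a transporter linked to lysosomal cholesterol. It had 41.2, 40.5 and 39.0 CPM in diseased against 58.6, 66.9 and 72.6 CPM in un-diseased replicates 1, 2 and 3. The groups did not overlap, and Abca5 fell by 0.71 (SE 0.11, adjusted p = 0.0254 by edgeR), in all 3 pairs. Its adjusted p lay between 0.0515 and 0.132 without any 1 of the 3 diseased samples or of un-diseased replicates 2 and 3. It belongs to 12 other efflux, LXR target and oxysterol genes, of which 0 rose and 1 fell without the block and 1 rose and 4 fell with it (median log2 fold change -0.17). Of all tested genes 1.61% rose and 2.13% fell without the block, and 10.5% and 13.3% with it.

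In that list the oxysterol enzymes Ch25h and Cyp27a1 also fell with the block, and Cyp27a1 by DESeq2 without it (adjusted p = 0.0095). The oxysterol enzymes did not all fall. Cyp7b1 was the 1 rise with the block (log2 fold change 0.42, adjusted p = 0.0405 by edgeR), and Cyp46a1 did not pass (-0.49, adjusted p = 0.193). The transporter Abca7 was the other fall with the block (-0.33, adjusted p = 0.0392 by edgeR). Ch25h, which makes 25-hydroxycholesterol, had 0.98, 3.86 and 3.88 CPM in diseased and 3.07, 8.14 and 9.73 CPM in un-diseased replicates 1, 2 and 3. Each diseased sample lay below its partner, though the groups overlapped (log2 fold change -1.27, SE 0.57, adjusted p = 0.198 without and 0.00415 with the block, by edgeR). Cyp27a1, which makes 27-hydroxycholesterol, had 8.07, 6.04 and 5.34 CPM in diseased and 14.2, 13.5 and 9.11 CPM in un-diseased replicates, without overlap (log2 fold change -0.92, SE 0.23, adjusted p = 0.0687 without and 0.00518 with the block, by edgeR). Macrophages can express Ch25h and Cyp27a1. Macrophage markers summed to 227 to 602 CPM in diseased and 50.01 to 299 CPM in un-diseased samples, which overlap. The part of macrophage RNA in these values was not tested.

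The remaining lists of the wider pathway held no call by edgeR with TMM scaling and without the block. Of their genes, Fntb, Lipa, Lbr and Lpin1 were checked in every setting. Without the block, Fntb and Lipa passed by DESeq2 (adjusted p = 0.0295 and 0.0493) and with upper-quartile factors (0.0446 and 0.0491), and Lbr when un-diseased replicate 1 was left out (0.045). Of 25 genes of sterol transport and SREBP processing, 1 rose and 1 fell with it: Lipa, the lysosomal lipase that frees cholesterol from its esters, at 94.4, 93.6 and 92.5 CPM in diseased and 72.9, 73.1 and 80.2 CPM in un-diseased replicates, and Lbr, which has sterol reductase activity, at 23.0, 31.6 and 26.8 CPM in diseased and 30.4, 41.6 and 41.9 CPM in un-diseased replicates. Their adjusted p was 0.0395 and 0.0135 with the block and 0.0913 and 0.125 without, by edgeR. For these lists too, the shares of all tested genes with the block were 10.5% risen and 13.3% fallen. Of 11 genes that use the pathway's isoprenoids outside sterols, 1 rose with the block, Fntb, a farnesyltransferase subunit (log2 fold change 0.59, SE 0.13, adjusted p = 0.0181 by edgeR). Of 16 lipogenic genes, known as SREBP targets of fatty acid synthesis, 2 had a positive fold change, against 51.8% of all tested genes, and 14 a negative one (median -0.18). With the block 1 rose, Lpin1, a phosphatidate phosphatase (0.40, SE 0.12, adjusted p = 0.0451 by edgeR). The most negative was Scd1, at 525, 494 and 400 CPM in diseased and 533, 820 and 852 CPM in un-diseased replicates, without overlap. Its log2 fold change was -0.64 (SE 0.21, adjusted p = 0.118 without and 0.0541 with the block, by edgeR). The authors' q-value is below 0.05 for Scd1 (0.0381) and Fntb (0.0367). With the block and DESeq2, Fntb (adjusted p = 0.0822), Lipa (0.130) and Lpin1 (0.196) did not pass, nor did these 3 by edgeR when any 1 pair was left out. Lbr did not pass without pair 3 (0.0935). Adipocyte markers were at a lower sum, made up mostly of Lpl, in diseased samples beside these genes. The part of adipocyte RNA in their values was not tested.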

How the data were processed

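Estimated counts per gene in 6 samples, 3 in each group, were deposited by the authors. Beside them stand the authors' own log2 ratio (un-diseased over diseased), p-value and q-value. The submitters' processing notes name GRCm38, RSEM 1.3.1, HISAT2 2.0.4 and DESeq2 1.4.5, without saying what each did. A fractional part was present in 9.6% of the estimated counts, and all were rounded.

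In R 4.3.3 with edgeR 4.0.16, genes passing filterByExpr (minimum count 10) were scaled with TMM and compared by the quasi-likelihood test with Benjamini-Hochberg adjustment over 13264 genes. Intervals use the test's degrees of freedom. Pairwise differences use log2 CPM with a prior count of 2. Alternatives were DESeq2 1.42.0, limma-voom (limma 3.58.1), upper-quartile and RLE factors, 2 other filters, a threshold of 0.01, the replicate block, and leaving out each sample or pair. The steps were tested on simulated data.

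The replicate numbers come from the sample titles. Deviations from group means correlated at 0.487, 0.578 and 0.276 for numbers 1, 2 and 3 over 13264 genes. Between unlike numbers the correlations ran from -0.531 to 0.137. Same-numbered samples were treated as pairs on the ground of these data, as the labels do not link them. No 2 samples of a group agreed within sampling noise (chi-square per gene of 25.7 to 62.1). The limit for a gene at 0, set at 3 counts, equals 0.147 to 0.188 CPM and covers counting error only.

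The members and lists were chosen with earlier results of these data known. By rule, statistics were given for members that passed without or with the block and for the member of highest CPM in each group. Of the other lists, they were given for up to 3 genes with the smallest adjusted p in either comparison. Sqle, Acat2, Pmvk, Dhcr7, Sc5d, Stard4 and Nr1h2, other members and the sample orders were chosen for display after their values were seen. So were Abca7, Cyp7b1, Cyp46a1, Scd1 and the single marker genes named. Exon lengths, overlaps and near copies (at least 95% identity over 150 bases) are from GENCODE M21, and positions and promoters from RefSeq, both of GRCm38.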

Additional observations from a re-analysis of the deposited data

How the results depend on the processing

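The count of 0 members passing held with RLE and upper-quartile factors, both other filters, limma-voom and a threshold of 0.01. It became 1 with DESeq2, 2 with the replicate block, whether by edgeR, DESeq2, limma-voom or upper-quartile factors (the last 3 added after seeing the data), and 0 to 1 on leaving out 1 sample, or 0 to 9 on leaving out 1 pair with the block. By group, the block gave 1 synthesis and 1 uptake and handling gene in each of these versions, and DESeq2 without it 1 uptake and handling gene. Leaving out samples or pairs gave 0 to 5 synthesis, 0 to 1 sensing, 0 to 2 uptake and handling, and 0 to 1 efflux genes. Over all genes the 495 calls became 1517 with DESeq2, 4 at a threshold of 0.01, 3167 with the block, 2217 with the block and DESeq2, 3207 with the block and limma-voom, 3451 with the block and upper-quartile factors, 5 to 1075 without 1 sample, and 1009, 2083 and 2569 without pair 3, 2 and 1 with the block. The median log2 fold change of the uptake and handling genes, 0.05, became 0.14 with upper-quartile factors, without or with the block, -0.0087 to 0.12 without 1 sample, and 0.0033 without pair 1 with the block; the synthesis median, 0.25, ran from 0.12 without diseased replicate 2 to 0.38 without pair 1 with the block, the sensing median from -0.16 to -0.02, and the efflux median from -0.25 to 0.01 over all alternatives. The replicate block by edgeR also brought Ch25h, Cyp27a1, Lbr, Lipa, Fntb and Lpin1 past the threshold, of which Lipa, Fntb and Lpin1 did not pass with the block and DESeq2 or without any 1 pair (Fntb 0.0525 to 0.081, Lipa 0.0896 to 0.162, Lpin1 0.108 to 0.200 as adjusted p). Abca7 and Cyp7b1 passed with the block by edgeR too, and their values in other settings are not given here. Sqle changed sign in 2 of 20 settings, and other members did so too. Scap and Npc1 kept their sign in 18 of 20 settings, Insig1 and Soat1 in 17, Lss and Abcg1 in 13, and Idi1 in 11. The cause of these shifts was not tested. Comparisons that left out samples or pairs also held fewer samples. With 3 samples a group, the 95% interval lay within 2-fold for 24 of the 32 members only.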
